A study of Labeotropheus fuelleborni x Mchenga conophoros and Petrotilapia nigra x Mchenga conophoros and Petrotilapia nigra x Aulonocara baenschi with 10 samples.

Results

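Ependymin-1 mRNA was lowest in the brains of hybrid cichlid males that courted over sand and highest in males that courted over rock, whether these had a rival brother or were alone. The gene is the locus LOC101485530, row gene10955 of a count table of 32455 loci, and it is the only locus described in depth here (1 of 32455). It was chosen by its measured difference between social sand and social rock brains in earlier results of these data. Its levels in those groups, and the difference between lone and social sand males, which uses the same social sand libraries, are therefore given as a description with no test. The comparison of lone with social rock males, of sires, of dams and of broods was not used to choose it and was tested. These tests still reuse libraries that chose the gene, the social rock males among them, so they are not fully independent of that choice.

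Whole brains of 10 F1 males, each from a rock-dwelling father and a sand-dwelling mother of Lake Malawi, had been sequenced as mRNA libraries, 1 library for each fish. In each of 4 dyads, brothers shared a tank with hybrid females of their own cross, and 1 brother courted over the rock side (social rock, n = 4) while the other built a bower and courted over the sand side (social sand, n = 4). A further 2 males had no rival and courted over rock (lone, n = 2). Brood 1 was Petrotilapia nigra × Mchenga conophoros, brood 2 Petrotilapia nigra × Aulonocara baenschi, brood 3 Maylandia zebra × Tramitichromis intermedius and brood 4 Labeotropheus fuelleborni × Mchenga conophoros, with the sire named before the dam. By their sample titles, the lone males were of the cross of brood 4 and of brood 5, Maylandia zebra × Mchenga conophoros. Neither thus had a Petrotilapia nigra sire. The titles do not say whether the first shared a clutch with the brood 4 dyad. Brothers are separate fish of 1 clutch, no pure parental species was sequenced, and ages were not given. The larger brother of a dyad was the social rock male in the study's account, so size and context cannot be told apart. The sample titles mark social rock males DOM and social sand males SUB, so that label and context cannot be told apart either. The study holds that a model of dominant and subordinate males seems not to apply.

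Ependymins are secreted glycoproteins that bind calcium. In goldfish, where the family was first described, ependymin is made by fibroblasts of the meninges, the membranes around the brain, and is released into the cerebrospinal and extracellular fluid. Goldfish work has tied the protein to the consolidation of memory after learning and to regeneration of the optic nerve. Its role in Lake Malawi cichlids is not described in the sources used here. The locus lies on scaffold NC_036789.1 of the genome build MZ_UMD2a, from 10797659 to 10799307, a span of 1649 bases. Its exons were not analysed here, and the strand setting of the counting is not given in the sources used here.

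Library totals ran from 492489 to 694114 counts in social rock males, from 206320 to 335551 in social sand males and from 375132 to 457974 in lone males. Each social sand total was smaller than any of the 6 others. Social sand libraries also had a count at fewer loci, 11357 to 13199 against 15483 to 16629 in the 6 others. Depth or library quality therefore cannot be told apart from context by design. Beside the brain label, 7 glial and 4 neuronal marker genes were looked at. All 7 glial markers and 3 of the 4 neuronal markers had a count in every one of the 10 libraries. They came from the study's list of genes that differed in these libraries, so their detection does not test the label. No named marker of meningeal fibroblasts other than ependymin-1 was among the genes with names, so the amount of meninges in a sample was not tested. In whole-brain RNA, fewer cells of a type and less RNA per cell cannot be told apart.

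In the social rock males, ependymin-1 had 900 counts in brood 1, 898 in brood 2, 1564 in brood 3 and 2586 in brood 4. Scaled with TMM factors to CPM, the count expected in a library of 1000000, these were 1955, 1516, 2886 and 4574 CPM. In their social sand brothers it had 176, 107, 66 and 92 counts, or 619, 586, 287 and 377 CPM in broods 1 to 4. The lone males had 1584 counts in brood 4 and 2226 in brood 5, or 3865 and 4739 CPM. All 4 social sand males thus lay below all 6 males that courted over rock, and the lowest social rock male stood 2.45-fold above the highest social sand male. Among the 7733 genes with enough counts to be tested, 694 (8.97%) had all 4 social sand males below all 4 social rock males.

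As a share of all counts in a library, ependymin-1 made up 0.512% in the social rock male of brood 4 (95% Clopper-Pearson interval 0.493% to 0.532%) and 0.0222% in the social sand male of brood 3 (0.0172% to 0.0283%). These were the ends of the range. The intervals cover counting error only. In the order of shares, the social rock male of brood 4 and the lone male of brood 5 (0.486%, 0.466% to 0.507%) had overlapping intervals. The social sand males of broods 1 (0.0525%, 0.0450% to 0.0608%) and 2 (0.0519%, 0.0425% to 0.0627%) also overlapped. The social sand male of brood 4 (0.0367%, 0.0296% to 0.0450%) overlapped with brood 2 and lay above brood 3. Every other neighbour in the order was separated by more than the counting error. The social sand intervals, from 66 to 176 counts, were the widest for their size.

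**Figure D1:**
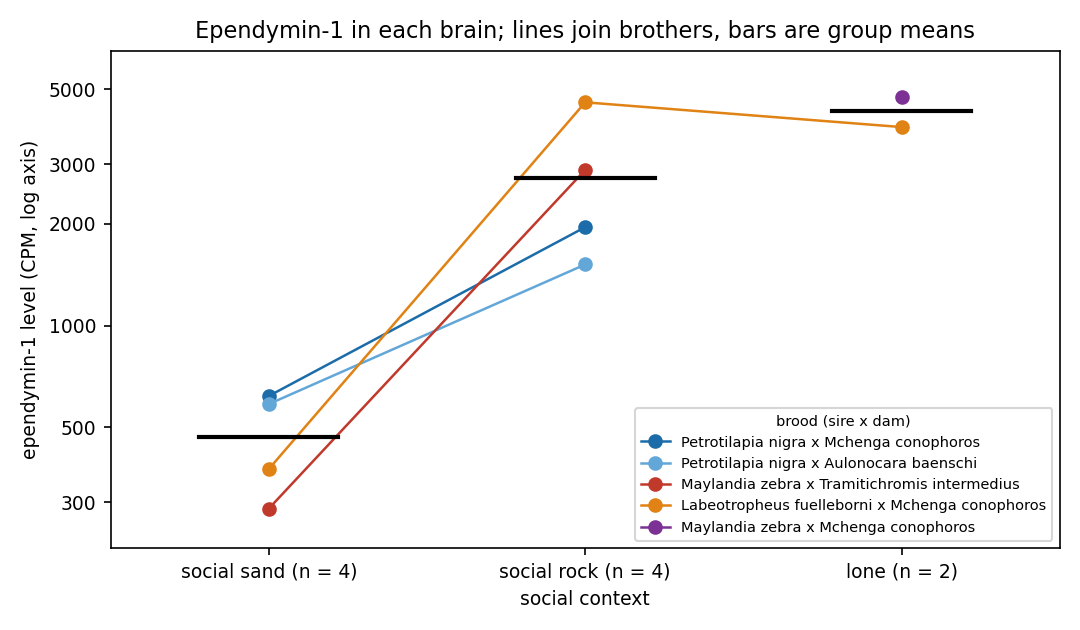
Ependymin-1 level in each of the 10 brains (CPM, log axis) by social context. Lines join males of a cross, colours mark the cross and bars mark group means. Whether the lone male on the line of brood 4 is a brother of that dyad is not known. The 4 social sand males sit between 287 and 619 CPM, below the lowest social rock male at 1516 CPM, and the lone males lie at 3865 and 4739 CPM.

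The mean level was 2733 ± 1354 CPM in social rock males (SD, n = 4), 467 ± 161 CPM in social sand males (n = 4) and 4302 ± 618 CPM in lone males (n = 2). In edgeR's fit over all genes, social sand was lower than social rock by 5.85-fold (log2 fold change -2.55 ± 0.33, SE). Lone was higher than social sand by 9.20-fold (log2 fold change 3.20 ± 0.37, SE). Ependymin-1 had the smallest p of the 7733 genes in both contrasts, which describes how it was chosen and supports nothing further. By size of fold it was the 209th of the genes that were lower in social sand. The 208 genes with larger folds had a median of 92 counts over the 10 libraries, against 154 over all tested genes and 10199 for ependymin-1. Social sand libraries were also the shallowest. With all libraries thinned to the smallest total, the social sand difference was -2.53 on the log2 scale. Thinning evens out depth alone, so a difference in library quality would remain. Scaling by total counts alone moved the median of all genes from -0.066 to -0.219 on the log2 scale, and relative to that median ependymin-1 differed by -2.48 with TMM and -2.54 with total counts.

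Brothers differed in the same direction in all 4 dyads, but by unequal amounts. The social rock brother had 3.16 times the CPM of the social sand brother in brood 1 and 2.59 times in brood 2, the broods with a Petrotilapia nigra sire. The ratio was 10.04 in brood 3 and 12.1 in brood 4, whose sires were Maylandia zebra and Labeotropheus fuelleborni. In the cross of brood 4, the only cross with all 3 contexts, the lone male had 0.845 times the CPM of the social rock male and 10.3 times that of the social sand male. The 3 males of this cross therefore fell into a low sand male and a pair of high rock-courting males.

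Lone males were compared with social rock males to ask whether courting over rock without a rival went with another level. The lone males at 3865 and 4739 CPM lay on either side of the social rock male of brood 4 and above the other 3 social rock males. The log2 fold change was 0.65 ± 0.37 (SE, 95% interval -0.12 to 1.43), and it did not pass edgeR's quasi-likelihood test (Benjamini-Hochberg adjusted p = 0.970 over 7733 genes). The interval still holds a 2-fold higher level in lone males. No gene was called between these groups at an adjusted p under 0.05 and a fold of at least 2 (0% of 7733), while 275 had an unadjusted p under 0.05 in edgeR, 524 in limma-voom and 250 in DESeq2, with 0 called by either of those tools. The difference moved with the broods that entered. It was 0.22 without the 4 Petrotilapia-sired males (a fit added after the data were seen), 0.19 with brood as a block, and 1.17 without brood 4 (edgeR adjusted p = 0.628). The adjusted p ranged from 0.628 to 1 over 16 alternatives and from 0.341 to 1 with 1 library left out. With only 2 lone males, the lone level rests on 1 fish from each of 2 crosses.

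The values by sire crossed between the contexts. In social rock males, ependymin-1 averaged 1735 CPM with a Petrotilapia nigra sire (1516 and 1955 CPM) and 3730 CPM with the other sires (2886 and 4574 CPM). In social sand males the order turned round, with 602 CPM (586 and 619 CPM) against 332 CPM (287 and 377 CPM). The ranges of the sires overlapped in neither context, but each range rests on 2 males. How many of all genes show the same was not counted, so it is given as a description. The difference between social sand and social rock was smaller in the Petrotilapia-sired broods by 1.97 ± 0.45 on the log2 scale (SE, 95% interval 1.01 to 2.92). The interaction term of edgeR's fit to the 8 dyad libraries gave an adjusted p = 0.632 over 4862 genes, so the difference failed the correction. No gene had an adjusted p under 0.05 for this term (0% of 4862), 382 had an unadjusted p under 0.05, and ependymin-1 was the 3rd by p. Looser filters on low counts gave 5 and 8 genes, and leaving out the social sand male of brood 1 or 4 gave 2 and 1. The limma-voom and DESeq2 fits also called 0 genes for it, with adjusted p = 0.649 and 0.128 for ependymin-1. Within social rock the sire difference was -1.12 ± 0.31 (edgeR adjusted p = 0.782), and within social sand it was 0.85 ± 0.32 (edgeR adjusted p = 0.637). These values within a context were added after the data were seen. With 2 broods against 2, an exact permutation test of the 4 brother differences cannot go below p = 0.333, and the sire species cannot be told apart from the clutch and the tank in so few broods. Dam species was not balanced over the sires. Only Mchenga conophoros occurred with both kinds of sire, in broods 1 and 4, whose brother ratios were 3.16 and 12.1. The other 2 dams each occurred in 1 dyad, so their part cannot be told apart from that of the sire.

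Averaged over contexts, no parent or brood went with a level that passed the test. The sire and dam fits had no term for brood, so brothers counted as separate replicates. Their SE and p thus do not measure the spread among broods. The Petrotilapia sire difference was -0.17 ± 0.34 on the log2 scale (edgeR adjusted p = 0.955, with 1 gene or 0.0129% passing, a number that varied from 0 to 109 over alternatives) and changed sign when the social rock library of brood 1, 2 or 4 was left out. The Mchenga conophoros dam difference was 0.39 ± 0.30 (edgeR adjusted p = 0.881, with 2 genes or 0.0259% passing, varying from 0 to 99), and it was 0.05 with the brood 4 social rock male left out. For the 4 dyad broods, fitted levels spanned 0.61 on the log2 scale, less than the median span of 0.87 over 4862 genes (edgeR F test, adjusted p = 0.998), although 68 genes (1.4%) did pass that test, or 19 to 212 over alternatives. Counting error widens the span of genes with few counts, so that median is not a like measure for an abundant gene. A social rock male that stood above the mean of its group had a brother below the mean of his, and the reverse, in all 4 broods. These signs divided by sire, so they restate the crossing of the sires given above and are no further result.

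**Figure D2:**
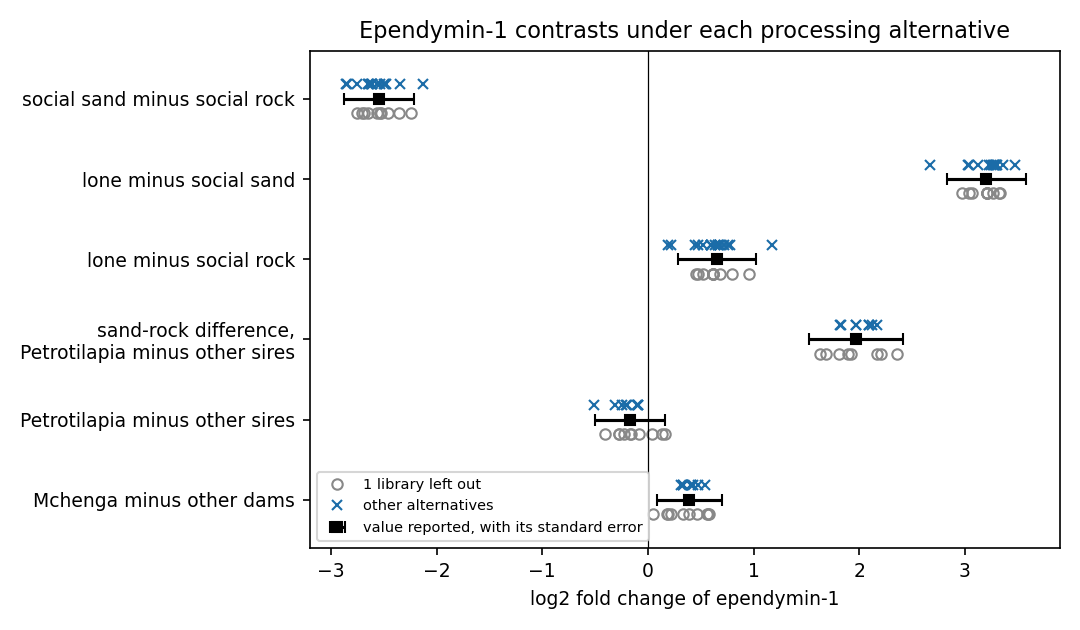
Log2 fold change of ependymin-1 in 6 contrasts. Squares with bars give the value reported and its standard error, circles the fits with 1 library left out and crosses the other alternatives. Social sand minus social rock stays between -2.86 and -2.13 in every fit run, and the Petrotilapia sire difference lies on both sides of 0.

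Within a context, ependymin-1 varied more than most other abundant transcripts. Social rock males spanned 3.02-fold (coefficient of variation 49.6%), social sand males 2.15-fold (34.4%) and the lone males 1.23-fold. The pooled within-context SD was 0.57 on the log2 scale. Over all tested genes the median was 0.62 and 57.9% had a larger SD, but the SD of genes with few counts holds more counting error. Among the 120 tested genes whose mean log2 CPM was at least that of 1000 CPM, the median SD was 0.29 and only 5 genes exceeded ependymin-1.

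Tubulin beta-4B and calmodulin 3 had the patterns most like that of ependymin-1. Likeness was Pearson's r of log2 CPM over the 10 libraries, which share the context groups and the scaling factors, so r is given as a description. Tubulin beta-4B (LOC101480422), a subunit of microtubules, had the highest r of all 7732 other tested genes at 0.997. It had 280, 219, 312 and 451 CPM in social rock males of broods 1 to 4. It had 106, 115, 65.3 and 85.9 CPM in their social sand brothers and 417 and 458 CPM in the lone males. Its order of libraries was that of ependymin-1, except that the social sand males of broods 1 and 2 changed places. Calmodulin 3 (calm3), a calcium sensor, had r = 0.985, with 238 to 619 CPM in social rock, 47.9 to 98.5 in social sand and 551 to 709 in lone males. The other 8 of the 10 named genes most alike had r from 0.976 to 0.982. These were the neuronal membrane protein gpm6a, neurofilament light (LOC101487084), the actin-severing factor cofilin 1 (cfl1), the microtubule-binding protein tau (LOC101463783), synuclein beta (sncb), the translation factors eif1ax and eIF5A-1 (LOC101484122), and prothymosin alpha-B (LOC101466337), a small nuclear protein.

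Names were available for 646 of those 7732 genes, all from the study's own list of genes that differed between social rock and social sand brains, so likeness among named genes was fixed in part by how they were named. The median r was 0.88 over the named genes and 0.12 over all genes. In all, 319 genes reached r of at least 0.9, of which 250 had names. The top 10 also depended on the measure, since 3 of them stayed with Spearman's correlation and 9 with scaling by total counts.

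The group means were then taken out, so that only differences among males of a context counted. By r of these deviations the most alike gene was another synuclein (LOC101469304, r = 0.983), a protein of presynaptic terminals. Tubulin beta-4B followed at 0.975. Only 3 of the 10 most alike genes by this measure had names, the third being eIF5A-1 at 0.949, and 2 of the 10 also stood among the 10 named genes most alike overall. The median r of deviations was 0.09 over all genes, and 26 genes reached 0.9. The synuclein had 157 and 237 CPM in Petrotilapia-sired social rock males and 325 and 497 CPM in the others, and 137 and 137 CPM against 61.0 and 90.0 CPM in social sand males. Its values by sire crossed between the contexts like those of ependymin-1, a likeness that follows from how the gene was picked.

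**Figure D3:**
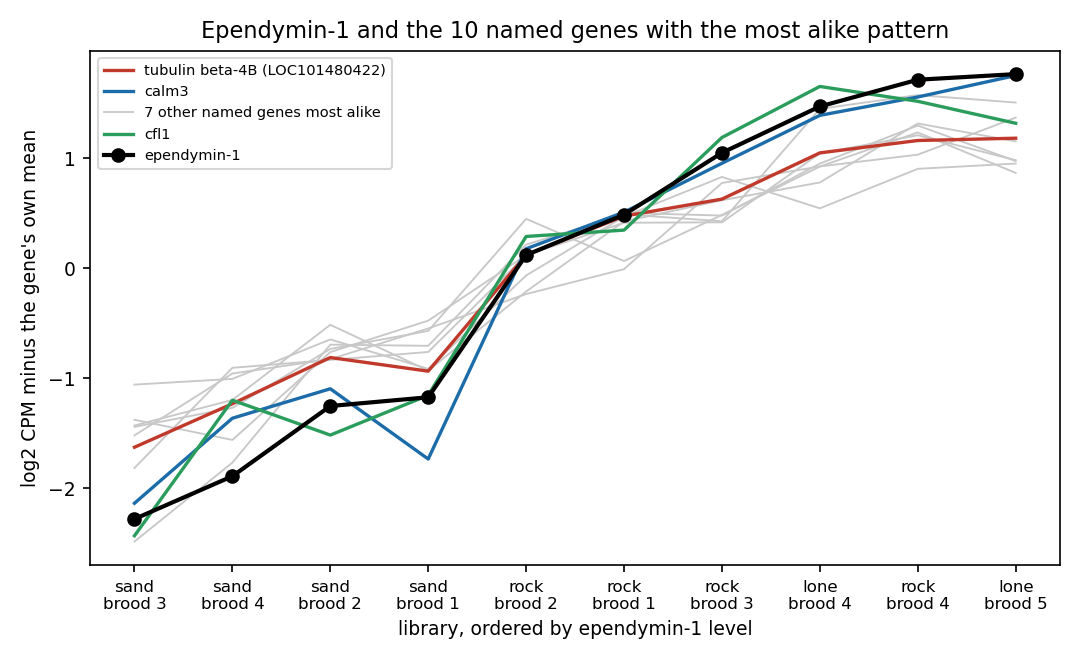
Log2 CPM of ependymin-1 and of the 10 named genes with the most alike pattern, each minus its own mean, in the 10 libraries ordered by ependymin-1 level. Ependymin-1 has a wider range than tubulin beta-4B, whose r with it is 0.997, and all social sand libraries lie on the left.

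The named gene with the most opposite pattern was neutrophil cytosolic factor 4 (ncf4, r = -0.962), known from mammals as a subunit of the phagocyte NADPH oxidase. It had 2427 to 4802 CPM in social rock males, 7550 to 9152 in social sand males and 1989 to 2263 in lone males. Among social rock males it was lowest in brood 4, where ependymin-1 was highest. The ubiquitin ligase MARCH3 (LOC101468443) and casc1 followed at r = -0.957 and -0.940.

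Most markers of glia and neurons were called lower in social sand as well, and so were some genes for other secreted or surface proteins. These lists hold only genes that the study had named as differing on these samples, so their direction is not independent evidence. Over all 7733 genes, 243 (3.14%) were called lower in social sand than in social rock and 25 (0.323%) higher, with a median log2 fold change of -0.066. Of 7 glial markers, all 7 were tested and 7 were called lower, with a median of -1.81. With 1 library left out, a check of the lists added after the data were seen, the count was 3 to 7, and it was 3 or 4 when either male of brood 3, the brood 4 social rock male or the brood 1 social sand male was absent. The glial glutamate transporter slc1a2 averaged 1584 ± 840 CPM in social rock, 355 ± 159 in social sand (SD, n = 4 each) and 1922 ± 201 in lone males (n = 2), a log2 fold change of -2.16 in social sand (edgeR adjusted p = 0.00662). The astrocyte gene NDRG2 (LOC101478721) fell from 428 ± 214 to 88.0 ± 33.0 CPM (edgeR adjusted p = 0.00662). Both, and the secreted chaperone clusterin (clu), kept the call without any single library, whereas glial fibrillary acidic protein (LOC101468392) lost it in 8 of 10 such fits. Clusterin is also a member of the list of secreted genes below, so it counts in both lists and in both of their sums.

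Of 4 neuronal markers, 3 were called lower in social sand (median log2 fold change of all 4, -1.61), and 4 with brood as a block. Neurofilament light, of the axonal cytoskeleton, averaged 549 ± 196 CPM in social rock males and 184 ± 64.4 in social sand males (edgeR adjusted p = 0.0120). Synuclein beta averaged 547 ± 200 and 183 ± 51.9 CPM (edgeR adjusted p = 0.0106), and the vesicle protein VAMP2 (LOC101474029) 336 ± 157 and 108 ± 24.4 CPM (edgeR adjusted p = 0.0178). VAMP2 lost the call without the social sand male of brood 3. Neurexin-2 (LOC101481487) averaged 60.4 and 15.5 CPM and did not pass (edgeR adjusted p = 0.0861). Markers of both cell classes thus moved with ependymin-1, and their part in its difference was not tested.

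Of 16 genes for secreted or extracellular proteins, 8 had a count in all 10 libraries, 14 were tested and 7 were called lower in social sand, with a median of -1.96. The count was 3 to 8 with 1 library left out, being 3 or 4 in the absence of those same males, and 9 with brood as a block, where 441 genes (5.7%) were called lower. Several tested members had no count in some social sand males and could pass the count filter on the social rock and lone libraries alone. The median of this list was thus set in part by that filter. Chromogranin A (chga), a protein of secretory granules, averaged 470 ± 137 CPM in social rock males and 158 ± 33.2 in social sand males (edgeR adjusted p = 0.0125). Chromogranin B (chgb) averaged 1400 ± 225 and 609 ± 206 CPM (edgeR adjusted p = 0.0180), a call lost without either male of brood 3. A pentraxin fusion protein (LOC101475289) averaged 78.7 ± 33.7 and 8.49 ± 9.81 CPM (edgeR adjusted p = 0.0160) and had no count in 2 social sand males. The untested members were an alpha-1-antitrypsin homolog (LOC101466770), with 4 counts in all, and semaphorin 3G (sema3g), with 28 counts in social rock, 0 in social sand and 21 in lone males.

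Of 14 cell-surface adhesion genes, 10 were tested and 2 were called lower, with a median of -2.31, and the count was 0 to 4 with 1 library left out (0 without the brood 3 social sand male) and 4 with brood as a block. Only 2 of the 14 had a count in all 10 libraries. A gene could pass the count filter on the social rock and lone libraries alone. The median thus rests on few social sand counts and was set in part by that filter. Neural cell adhesion molecule L1.1 (LOC101468157) averaged 126 ± 44.2 CPM in social rock males and 42.1 ± 3.21 in social sand males (edgeR adjusted p = 0.0201). Calsyntenin 3 (clstn3), a synaptic membrane protein, averaged 314 ± 91.7 and 117 ± 76.3 CPM (edgeR adjusted p = 0.0381), a call lost in 7 of 10 fits with a library left out. The copies of protocadherin-10 (LOC101468123 and LOC101469434) had log2 fold changes of -2.47 and -3.38 and did not pass (edgeR adjusted p = 0.0691 and 0.0725). Each had no count in some social sand males, so the size of these folds is uncertain. The 4 untested members, 2 integrin beta-1 loci, cadherin 8 and ephrin B1, had 29 to 44 counts over the 10 libraries.

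In lone against social sand males, 538 genes (6.96%) were called higher in lone males and 118 (1.53%) lower. Scaling by total counts gave 676 higher and 44 lower. Of the lists, 11 secreted, 8 adhesion, 6 glial and 3 neuronal genes were called higher in lone males. With 1 library left out these counts were 3 to 11, 0 to 7, 4 to 6 and 2 to 4, and each was lowest in the absence of a lone male. No list member was called between lone and social rock males. List medians ran from 0.34 to 0.73 on the log2 scale, beside 0.65 for ependymin-1 and a median of 0.049 over all 7733 genes. List members were named as differing between social rock and social sand, so these medians are not independent of the social rock libraries. These contrasts share libraries with each other.

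Relative to the summed level of 3 of these 4 lists within the same library, ependymin-1 was lower in every social sand male than in any social rock male. Divided by the summed CPM of the 7 glial markers it gave 0.658 to 0.789 in social rock, 0.280 to 0.579 in social sand and 0.849 to 1.09 in lone males, with no overlap between contexts. Divided by the 4 neuronal markers it gave 1.32 to 2.06 in social rock, 0.786 to 1.06 in social sand and 1.84 to 2.63 in lone males. Divided by the 16 secreted genes it gave 0.538 to 0.968, 0.340 to 0.406 and 0.981 to 1.04. Only the ratio to the 14 adhesion genes overlapped between social rock (2.97 to 4.38) and social sand (1.81 to 3.32), with 3.95 to 5.43 in lone males. The ratio of ependymin-1 to tubulin beta-4B counts was 6.91 to 10.1 in social rock, 4.38 to 5.87 in social sand and 9.26 to 10.4 in lone males. It rested on 15 to 30 tubulin counts in each social sand library. The ratio to calm3, the next most alike gene, did not separate the contexts. It was higher in the social sand than in the social rock brother of brood 1, and lower in broods 2 to 4. These ratios do not depend on the scaling, were added after the data were seen, and carry no test because they use the levels that chose the gene. The summed glial markers themselves ran from 2302 to 5797 CPM in social rock, 871 to 1342 in social sand and 4336 to 4553 in lone males. Abundant genes weigh most in these sums. Chromogranin B averaged 1400 of 3299 CPM of the secreted sum in social rock and 609 of 1217 in social sand. Some secreted genes, such as the pentraxin fusion protein (-3.05), had larger fitted falls than ependymin-1, though the list median was -1.96. Each of these genes had no count in some social sand males, so the size of their folds is uncertain. The glial marker s100b averaged 836 of 3652 CPM in social rock and 403 of 1092 in social sand. Single glial markers did not all follow the sum. Divided by slc1a2 alone, ependymin-1 was higher in the social sand than in the social rock brother of broods 1 and 2, and lower in broods 3 and 4. Divided by NDRG2 alone, it was higher in the social sand brother of brood 1, and lower in broods 2 to 4.

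**Figure D4:**
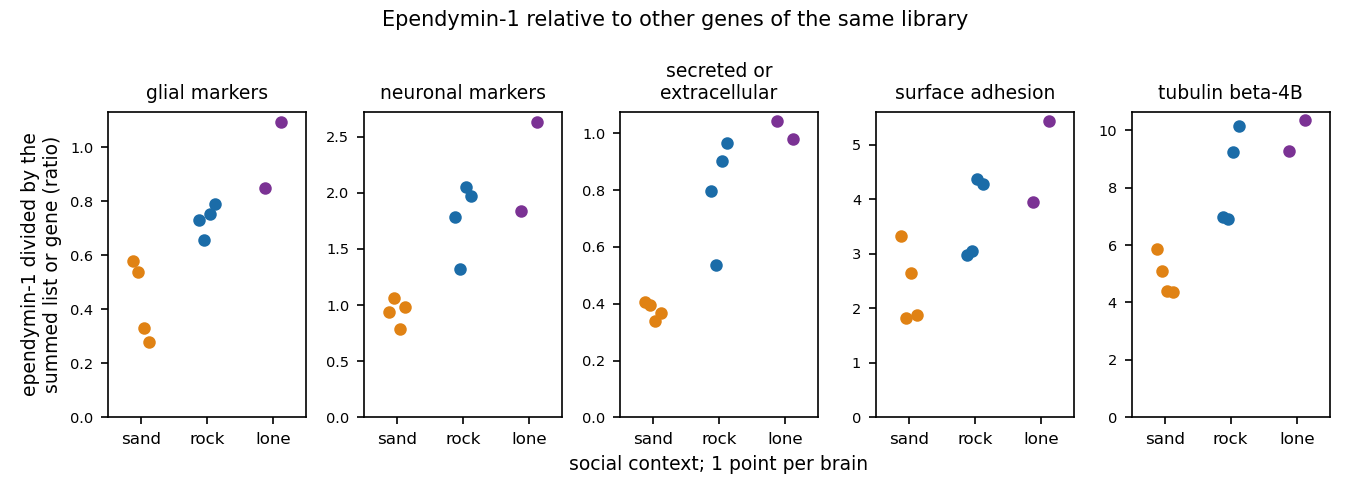
Ependymin-1 divided by the summed level of 4 gene lists and by tubulin beta-4B within each library, by social context, with 1 point for each brain and axes that start at 0. The social sand points lie below all social rock points in every panel but that of surface adhesion genes, where 1.81 to 3.32 overlaps with 2.97 to 4.38.

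No locus beside ependymin-1 was called. Row numbers follow the scaffold, since all 39 named genes on it were in order of position, so the 5 rows on each side were taken as its neighbours. Of these 10, 6 had enough counts to be tested and 0 were called between social sand and social rock, although 2 of the 6 had fitted log2 fold changes under -1. The row just before it, gene10954, averaged 530 CPM in social rock, 384 in social sand and 337 in lone males (log2 fold change of social sand -0.47, edgeR adjusted p = 0.336). Row gene10957 averaged 139 CPM in both (edgeR adjusted p = 0.992). Row gene10958 had 112 counts in social rock, 16 in social sand and 72 in lone males (log2 fold change -1.56, edgeR adjusted p = 0.115). The row just after, gene10956, had too few counts to be tested, with 28, 10 and 25. Within 500 kb, 9 other genes had names, of which 7 could be tested and 2 were called lower in social sand, beside 3.14% of all genes tested. These names too come only from the study's list of differing genes, so the count is not independent of that difference. Of the 7, 6 had log2 fold changes under -1, among them the spliceosome gene cwc15 (-2.51) and LOC101485015 (-1.77), both at an edgeR adjusted p = 0.0531. The first had only 7 counts over the social sand males, against 94 in social rock, so the size of its fold is uncertain. The share of all tested genes with log2 fold changes under -1 was not counted. These 6 genes, and the 2 adjacent rows, thus have no background share beside them. Sodium/potassium-transporting ATPase beta-2 (LOC101485486), a subunit of the sodium pump 439 kb away, averaged 278 ± 66.7 CPM in social rock, 64.6 ± 32.5 in social sand and 221 ± 33.3 in lone males (edgeR adjusted p = 0.00662). The RNA-processing gene srrt, 395 kb away, averaged 130 ± 35.9, 38.4 ± 11.3 and 186 ± 59.3 CPM (edgeR adjusted p = 0.0140). Both kept the call without any single library.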

How the data were processed

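Per the study's methods and the labels, the authors filtered and trimmed reads with the NGS QC Toolkit, mapped them to MZ_UMD2a (TopHat 2.0.9), sorted and converted the output (samtools 0.19) and deposited raw counts per locus (HTSeq 0.6.1). Their notes list edgeR 3.6.8 too. The annotation version and the handling of reads with multiple alignments were not given. Here, genes that passed filterByExpr (minimum count 10) received TMM factors, and quasi-likelihood tests were run in edgeR 4.0.16 under R 4.3.3: 1 fit of the 3 groups for contexts, with sire or dam added, or the 8 dyad libraries alone for broods and the interaction. A gene was called at an adjusted p (Benjamini-Hochberg, all tested genes) under 0.05 with at least a 2-fold change. For likeness, the log2 CPM had prior count 2. Alternatives used limma 3.58.1, DESeq2 1.42.0, other scalings and filters, thinning, brood as block and fewer libraries. Figures were made in matplotlib 3.10.9. The fits were tested on simulated data.

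The gene, the lists and the tests were chosen with earlier results of these data known. Names (812 genes) and coordinates came from the study's list of genes differing between social rock and social sand. Named genes were the 10 most like ependymin-1 by each measure, the smallest p values of each list (at most 4 genes), and neighbours, of which 1 result is not reported here. Opposite genes, untested members, glial fibrillary acidic protein and s100b were named after their values were seen. Brothers share a clutch by the series' description, so brood pairs them. The main fits of context, sire, dam and interaction had no brood term and were thus unpaired. Brood entered only the test among broods and the block alternative. Deviations of brothers correlated across genes at 0.0666, 0.197, 0.126 and 0.213 in broods 1 to 4.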

Additional observations from a re-analysis of the deposited data

Results flagged for a closer look

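The difference in ependymin-1 between social sand and social rock brothers was smaller in the broods of a Petrotilapia nigra sire than in the other broods, by 1.97 on the log2 scale (interaction in edgeR's fit, adjusted p = 0.632 over 4862 genes). It was singled out because the difference between brothers differed between the groups of broods. It had the 3rd smallest p of these genes, but it failed the correction. Both Petrotilapia-sired dyads lay on the same side of both others (log2 differences of -1.65 and -1.36 against -3.31 and -3.59), a split whose share over all genes was not counted. With 1 library left out, the value ran from 1.63 to 2.35 and the adjusted p from 0.387 to 0.980. In 12 groups of 4 males (ependymin-1, library totals and summed lists), 0 males stood apart from the rest by Dixon's test.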

How the results depend on the processing

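Social sand minus social rock ran from -2.86 to -2.13 over 15 alternatives and from -2.75 to -2.25 with 1 library left out. Lone minus social sand ran from 2.67 to 3.48 over 14 alternatives and from 2.97 to 3.33. With brood as a block they were -2.48 and 2.67, and lone minus social rock was 0.19. That block compares the lone male of brood 4 alone, since brood 5 drops out, so counts are not given for it. It takes him as a brother of the brood 4 dyad, of which the titles give only the shared cross. The sire difference turned positive without the social rock male of brood 1 (0.04), brood 2 (0.16) or brood 4 (0.14), and ran down to -0.41. Lone minus social rock ran from 0.46 to 0.96 with 1 library left out, and the dam difference from 0.05 to 0.58.

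The number of genes called between social sand and social rock was 268, and 627 without a count filter, 624 with a CPM filter, 29 with limma-voom, 480 with DESeq2, 140 after thinning, 507 with the brood block, and 64, 7 and 38 without brood 1, 3 or 4. It was 89 to 468 with 1 library left out, lowest without the social sand male of brood 3. For lone against social sand it was 656, and 989 with the CPM filter, 308 with limma-voom, 281 after thinning, and 320, 170, 240 and 133 without brood 1, 3, 4 or 5. It was 133 to 937 with 1 library left out. For lone against social rock it was 0, and 2 with upper-quartile scaling, 52 without a filter, 45 with the CPM filter, 13 without brood 4, and 0 to 9 with 1 library left out. The number of genes with an adjusted p under 0.05 was 1 for sire, and 109 without a filter, 106 with the CPM filter, 17 with DESeq2, 0 with limma-voom, 16 without the lone male of brood 4 and 15 and 14 without the social rock and social sand males of brood 1. For dam it was 2, and 99, 89, 6 and 0 in the same 4 alternatives. For broods it was 68, and 212, 207, 79 and 114 in these, 19 after thinning, and 49 to 124 with 1 library left out. The causes were not tested, apart from the thinner libraries and fewer males of the thinned and reduced fits. No other call on ependymin-1 changed. With 66 counts in the shallowest value, depth limits the social sand levels most.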
